A study of Mus musculus with 12 samples.

Results

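The miR-15, miR-16, miR-195 and miR-497 family is described here in mouse livers with toxic injury, through 7 mature miRNAs chosen by name out of 1929 in the count table. They are mmu-miR-16-5p, mmu-miR-15a-5p, mmu-miR-195a-5p, mmu-miR-15b-5p, mmu-miR-497a-5p, mmu-miR-15b-3p and mmu-miR-195a-3p, written below without the species prefix. Small RNA was sequenced from C57BL/6 livers in 12 libraries. The PZH group (6 libraries) came from mice given Pien Tze Huang, a traditional Chinese medicine, daily by the intragastric route. The water group (6 libraries) came from mice given double distilled water in its place. Mice of both groups also received carbon tetrachloride (CCl4) by intraperitoneal injection, a liver toxin used to produce hepatic fibrosis. The labels do not say outright that each library is a separate mouse, so p-values measure the spread between these samples. No uninjured liver was analysed here, so all comparisons lie within CCl4-treated mice, and doses, ages and treatment length were not stated.

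A miRNA is a short RNA that guides a silencing complex to messenger RNAs, chiefly through its seed, the bases 2 to 8 from the 5′ end. Members of this family share a seed and are known to repress cyclin D1, cyclin E and Cdk6, which drive cells through the G1 to S step of the cell cycle, and Bcl2, which protects cells from apoptosis. In human chronic lymphocytic leukaemia the pair miR-15a and miR-16 is often deleted, and in mouse heart miR-195 is linked to the arrest of cardiomyocyte division after birth. In the rat, miR-15b and miR-16 were linked to apoptosis of hepatic stellate cells, the cells that deposit matrix in a fibrotic liver.

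The sequences of the 5 members from the 5p arm, from RefSeq on build GRCm38.p6, show the seed that makes them a family and the 3′ portion that sets them apart; capitals mark bases 2 to 8.
miR-16-5p: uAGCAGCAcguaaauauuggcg
miR-195a-5p: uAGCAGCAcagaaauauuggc
miR-15a-5p: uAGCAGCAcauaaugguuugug
miR-15b-5p: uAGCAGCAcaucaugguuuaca
miR-497a-5p: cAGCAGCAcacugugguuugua

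These 5 carry the seed AGCAGCA. Of the first 21 bases, miR-16-5p and miR-195a-5p had 19 identical at the same position, and miR-15a-5p and miR-15b-5p had 18. Between miR-15a-5p and miR-497a-5p 17 were identical, while miR-16-5p and miR-497a-5p had 11. Between miR-15b-5p and miR-497a-5p 15 were identical, as many as between miR-15a-5p and either miR-16-5p or miR-195a-5p. How reads that match several miRNAs were assigned is not given in the sources used here, so the levels of miR-16-5p and miR-195a-5p, and of miR-15a-5p and miR-15b-5p, may hold an unknown share of each other's reads.

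The other 2 members come from the 3p arm of the miR-15b and miR-195a hairpins, the strand that is usually discarded. They have seeds of their own, and are shown for the stretch that pairs with the family seed inside the hairpin; capitals mark UGCUGCU, its reverse complement. It lies at bases 13 to 19 of miR-15b-3p and 14 to 20 of miR-195a-3p.
miR-15b-3p: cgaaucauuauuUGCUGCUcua
miR-195a-3p: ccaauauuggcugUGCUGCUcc

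The hairpins lie in 3 clusters, each with 1 hairpin of miR-16 or miR-195a and 1 of miR-15a, miR-15b or miR-497a. Mir15a (mature 5p arm at chr14:61632075-61632096, minus strand) and Mir16-1 (chr14:61631936-61631957) are 54 bases apart within the non-coding gene Dleu2, Mir15a in an intron and Mir16-1 overlapping an annotated exon. Mir15b (chr3:69009775-69009796, plus strand) and Mir16-2 (chr3:69009918-69009939) are 66 bases apart in an intron of Smc4, which encodes a condensin subunit. Mir497 (chr11:70234730-70234751, plus strand) and Mir195a (chr11:70235062-70235082) are 241 bases apart, with no annotated host gene on either strand in GENCODE M21. The mature miR-16-5p is the same from Mir16-1 and Mir16-2, so its count joins both loci, whereas the 3p arms and the 2 forms of miR-15 are specific to 1 locus.

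Total counts lay between 6065480 and 10436478 in the PZH libraries and between 4961913 and 20211784 in the water libraries. Levels are given as CPM, counts scaled to a common library total, with TMM factors, which adjust for library composition. Groups were compared with the quasi-likelihood test of edgeR over the 607 miRNAs that passed its filter on low counts. Fold changes are PZH over water, and a call is a Benjamini-Hochberg adjusted p under 0.05 over all 607. All 7 members passed the filter. The lowest count of any member in any library was 15, for miR-195a-3p, and the lowest of the next member, miR-15b-3p, was 206.

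The members spanned a wide range of levels and 1 member made up most of the family. By mean level over the 12 libraries the order was miR-16-5p, miR-15a-5p, miR-195a-5p, miR-15b-5p, miR-497a-5p, miR-15b-3p and miR-195a-3p. Mean CPM ran from 5041 for miR-16-5p, rank 34 of the 1929 miRNAs, to 8.01 for miR-195a-3p, rank 362. The neighbours miR-15a-5p and miR-195a-5p did not differ beyond their spread, as miR-15a-5p was the higher in 7 of 12 libraries. Every other neighbour in this order was the higher in 12 of 12. The capture of a miRNA in a small RNA library also depends on its sequence, so the order holds for these libraries.

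No member was called by edgeR. Among all 607 tested miRNAs 21.3% were called. At an unadjusted p under 0.05 there was 1 member, miR-15b-5p, where 32.3% of the tested miRNAs passed. DESeq2 called miR-15b-5p (adjusted p = 0.0299) and limma-voom called no member. The median log2 fold change was 0.11 over the 7 members, 5 of them positive, and -0.03 over all tested miRNAs, 274 of the 607 positive. The 5 hold both arms of miR-15b and of miR-195a. Of them miR-195a-5p stood at 0.00084, with a sign that turned in some fits.

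**Figure D1:**
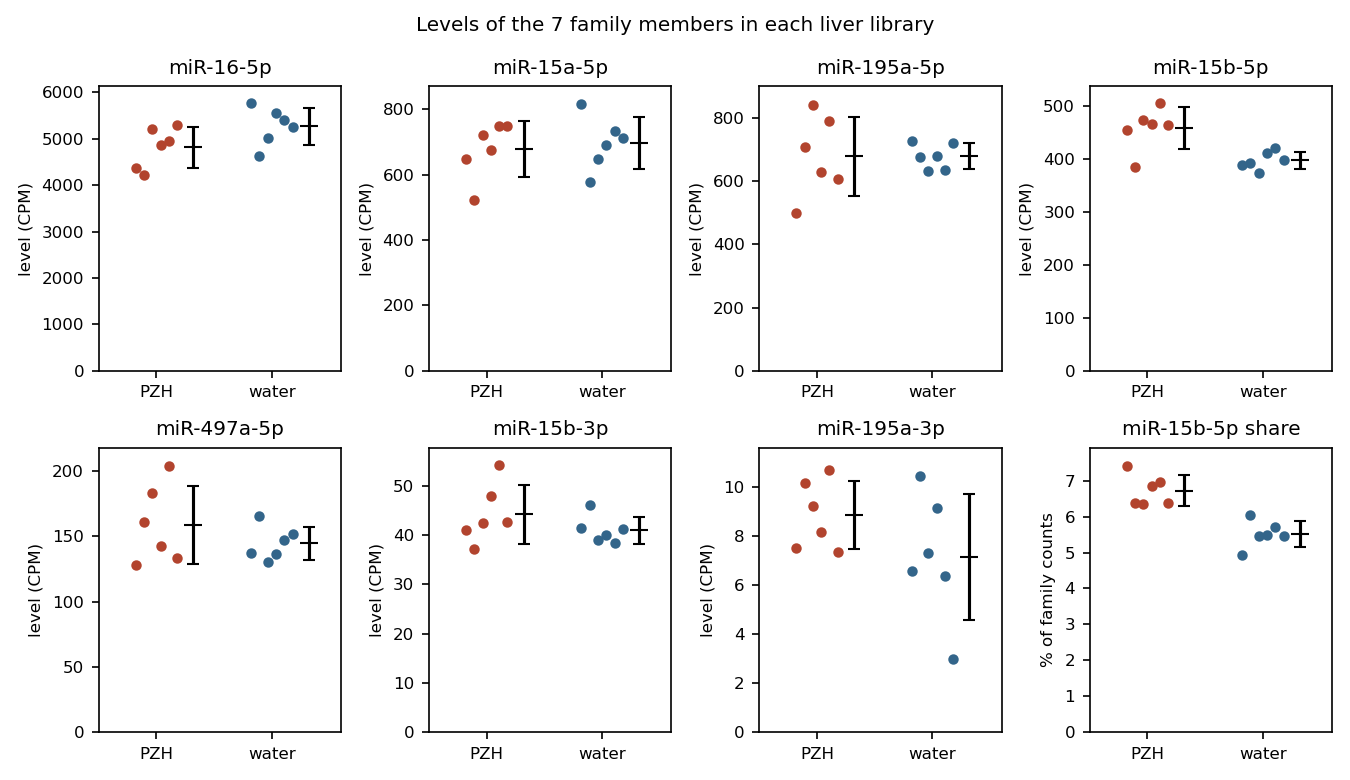
Level in CPM of each of the 7 members, and miR-15b-5p as a percent of all family counts, in 6 PZH (red) and 6 water (blue) libraries; points are libraries, bars are mean and SD, and axes start at 0. The groups overlap for every level, and for the share of miR-15b-5p the PZH points (6.35 to 7.42%) lie above the water points (4.93 to 6.05%).

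The most abundant member, miR-16-5p, is the one most often studied for arrest of cells in G1. In the PZH livers it stood between 4209 and 5285 CPM with a median of 4902, and in the water livers between 4636 and 5763 CPM with a median of 5322. All 6 PZH livers were below the water median, and 2 of them, replicates 1 and 2, were below every water liver. The mean was 4813 ± 438 CPM with PZH and 5268 ± 399 CPM with water (SD, n = 6 each), a log2 fold change of -0.13 with SE 0.08 and an edgeR adjusted p of 0.265. Its 95% interval ran from -0.29 to 0.03, and the estimate was negative under each of 19 alternative fits.

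The partner of miR-16-1 in Dleu2, miR-15a-5p, ranged from 523 to 750 CPM in the PZH livers with a median of 699, and from 579 to 815 CPM in the water livers with a median of 702. The groups overlapped almost fully. The log2 fold change was -0.04 (SE 0.10, 95% interval -0.26 to 0.18, edgeR adjusted p = 0.883), with a sign that turned under total-count scaling, DESeq2 and a stricter filter. PZH replicate 2 and water replicate 2 were the lowest of their groups for both miR-15a-5p and miR-16-5p.

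The 3p arms of the Dleu2 hairpins, which are not members, gave values of the same kind. The level of miR-16-1-3p averaged 14.1 ± 2.33 CPM with PZH and 14.4 ± 2.54 CPM with water (SD, n = 6 each). That of miR-15a-3p averaged 9.06 ± 1.58 CPM with PZH and 9.43 ± 2.07 CPM with water (SD, n = 6 each). Neither was called by edgeR, with log2 fold changes of -0.04 and -0.06, both of a sign that turned in some fits.

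From the Smc4 locus, miR-15b-5p stood between 385 and 506 CPM in the PZH livers with a median of 466. In the water livers it stood between 374 and 421 CPM with a median of 396. In 5 of 6 PZH livers it was above every water liver, and PZH replicate 2 lay within the water range. The mean was 459 ± 40.2 CPM with PZH and 398 ± 16.8 CPM with water (SD, n = 6 each; log2 fold change 0.21, SE 0.08, edgeR adjusted p = 0.0771). This missed the threshold, and it passed with RLE scaling (adjusted p = 0.0453), DESeq2, a filter of 10 CPM in 6 libraries (adjusted p = 0.00924) and without PZH replicate 2 (adjusted p = 0.0181). Over all 19 alternatives the log2 fold change lay between 0.18 and 0.29 and the adjusted p between 0.00924 and 0.231.

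Its passenger arm miR-15b-3p ranged from 37.2 to 54.1 CPM with PZH, median 42.5, and from 38.4 to 46.1 CPM with water, median 40.6. PZH replicate 5 was the highest of all 12 livers for both arms of miR-15b. The log2 fold change was 0.11 (SE 0.11, edgeR adjusted p = 0.564). The other 3p arm of this locus, miR-16-2-3p, averaged 16.03 ± 2.17 CPM with PZH and 13.0 ± 2.46 CPM with water (SD, n = 6 each; log2 fold change 0.30, edgeR adjusted p = 0.177). It was above the water median in 6 of 6 PZH livers, and 3 of them were above every water liver.

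From the chromosome 11 cluster, miR-195a-5p gave nearly the same mean in the groups but a wider spread with PZH. It ranged from 499.8 to 840 CPM in the PZH livers, median 667, and from 632 to 727 CPM in the water livers, median 677. The PZH livers lay on both sides of the water range, with 3 below it (replicates 1, 4 and 6) and 2 above it (replicates 3 and 5). The mean was 678 ± 125 CPM with PZH and 678 ± 40.6 CPM with water (SD, n = 6 each). The log2 fold change was 0.00084 (SE 0.11, 95% interval -0.24 to 0.24, edgeR adjusted p = 0.998), and the difference in spread was not tested.

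Its cluster partner miR-497a-5p ranged from 128 to 204 CPM with PZH, median 151, and from 130 to 165 CPM with water, median 142. Replicates 3 and 5 were again the highest PZH livers, above every water liver, and replicate 1 the lowest. The mean was 158 ± 29.8 CPM with PZH and 145 ± 12.7 CPM with water (SD, n = 6 each; log2 fold change 0.13, SE 0.12, edgeR adjusted p = 0.514).

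The least abundant member, miR-195a-3p, ranged from 7.36 to 10.7 CPM with PZH, median 8.72, and from 2.996 to 10.5 CPM with water, median 6.95. The lowest water liver was replicate 6, the library with the fewest counts. The log2 fold change was 0.29 with an SE of 0.23 (edgeR adjusted p = 0.450), and the 95% interval from -0.20 to 0.77 is the widest of the family.

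**Figure D2:**
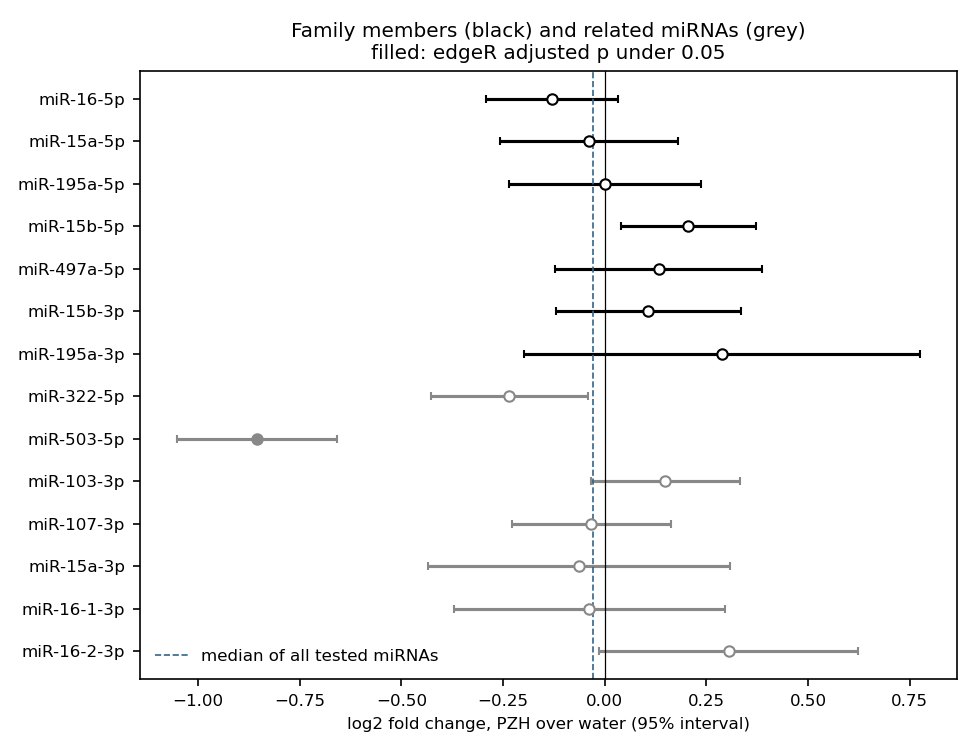
Log2 fold change of PZH over water with its 95% interval from edgeR for the 7 members (black) and for tested relatives with the same seed, a related seed or the same hairpins (grey). Filled symbols passed an adjusted p of 0.05: miR-503-5p at -0.85 alone. The interval of miR-15b-5p runs from 0.04 to 0.37, and the dashed line marks the median of all tested miRNAs, -0.03.

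Ratios of members within a library do not depend on how libraries are scaled, and 4 were compared between groups with two-sided exact permutation tests over libraries, which can give 0.00216 at the least. Relative to its paralogue miR-15b-5p from the Smc4 locus, miR-15a-5p was lower in the PZH livers. There were 1.36 to 1.61 counts of miR-15a-5p per count of miR-15b-5p with PZH, against 1.47 to 2.10 with water. PZH replicates 1, 2 and 4 were below every water liver. The lowest water liver, replicate 2 at 1.47, lay inside the PZH range. The mean log2 ratio was 0.56 ± 0.08 with PZH and 0.80 ± 0.17 with water (SD, n = 6 each), a difference of -0.24 (exact permutation p = 0.00866; 0.0346 adjusted over the 4 ratios).

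That call was lost when any 1 of 10 of the 12 libraries was left out (adjusted exact permutation p 0.0519 to 0.0693). It was kept only without PZH replicate 2 or water replicate 2. Without water replicate 1, which had the highest ratio, the difference was -0.19, and it kept its sign with every library left out.

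The other 3 ratios were not called. There were 0.141 ± 0.00948 counts of miR-15a-5p per count of miR-16-5p with PZH and 0.132 ± 0.00677 with water (SD, n = 6 each; adjusted exact permutation p = 0.136), and without PZH replicate 2 this difference was called (0.13 on the log2 scale, adjusted exact permutation p = 0.0346). Per count of miR-16-5p there were 0.141 ± 0.0244 counts of miR-195a-5p with PZH and 0.129 ± 0.0104 with water (SD, n = 6 each; adjusted exact permutation p = 0.331). Within the chromosome 11 cluster, there were 0.234 ± 0.0181 counts of miR-497a-5p per count of miR-195a-5p with PZH and 0.214 ± 0.0207 with water (SD, n = 6 each; adjusted exact permutation p = 0.136).

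The balance of the 5p and 3p arms was compared with limma over 137 hairpins with both arms counted, of which 8.03% were called. Neither hairpin with both arms in the family was among them. The log2 ratio of miR-15b-5p to miR-15b-3p was 3.38 ± 0.11 with PZH and 3.28 ± 0.12 with water (SD, n = 6 each; limma adjusted p = 0.548). That of miR-195a-5p to miR-195a-3p was 6.23 ± 0.17 with PZH and 6.63 ± 0.64 with water (SD, n = 6 each; limma adjusted p = 0.297), where water replicate 6 held only 15 counts of the 3p arm. For the Dleu2 hairpin of miR-15a the arm ratio was 6.21 ± 0.24 with PZH and 6.21 ± 0.29 with water (SD, n = 6 each; limma adjusted p = 0.985).

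**Figure D3:**
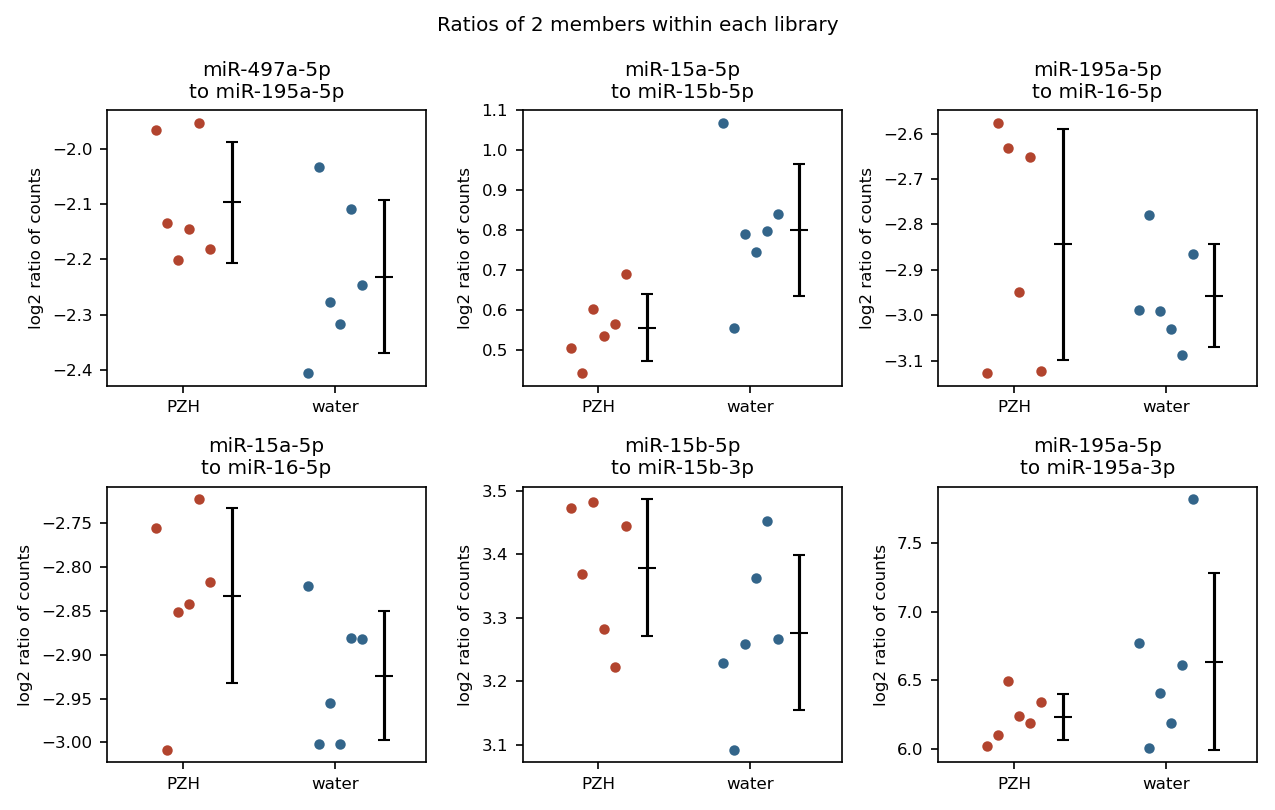
Log2 ratio of the counts of 2 members within each library, for 4 pairs and for both arms of miR-15b and miR-195a, in 6 PZH (red) and 6 water (blue) livers; points are libraries, bars are mean and SD, and the axes do not start at 0. Only miR-15a-5p to miR-15b-5p passed its test, at 0.56 with PZH and 0.80 with water, while 1 water liver (replicate 6) stands high in the arm ratio of miR-195a.

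Summed over the 7 members, the family came to 6840 ± 619 CPM with PZH and 7233 ± 487 CPM with water (SD, n = 6 each). That was 0.694% of all counts with PZH and 0.713% with water. Of these, miR-16-5p held 70.4% ± 1.51 with PZH and 72.8% ± 0.923 with water (SD, n = 6 each). The share of miR-15b-5p was 6.72% ± 0.431 with PZH and 5.52% ± 0.367 with water (SD, n = 6 each), and the groups did not overlap in it, with PZH at 6.35 to 7.42% and water at 4.93 to 6.05%. This share was looked at after the values were seen and was not tested. In CPM level, a different measure from this share, 10% of all tested miRNAs did not overlap between groups, and none of the 7 members was among them. How often such shares separate the groups was not looked at.

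The seed AGCAGCA was found in 10 of the 1647 miRNAs of the table with a RefSeq sequence, or 0.607%. The 5 that are not members are miR-322-5p, miR-195b, miR-6342, miR-6353 and miR-6419. Only miR-322-5p passed the filter. The others held 18, 6, 10 and 11 counts in all PZH libraries together (miR-195b, miR-6342, miR-6353 and miR-6419 in turn), against 44, 19, 9 and 4 counts in all water libraries. Since miR-195b shares its first 16 bases with miR-195a-5p, and miR-6353 its first 12 with miR-16-5p, such counts cannot be told apart with certainty from those of the members.

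The same-seed miR-322-5p and the seed relative miR-503-5p lie side by side on the X chromosome and are known to repress cyclin D1 and Cdc25a. They are shown to set their first bases against the family seed, again with bases 2 to 8 in capitals, together with miR-103-3p, which carries the same letters 1 base further towards the 5′ end.
miR-322-5p: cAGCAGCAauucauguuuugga
miR-503-5p: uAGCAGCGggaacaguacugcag
miR-103-3p: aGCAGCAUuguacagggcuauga

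Of these relatives miR-503-5p alone was called, with 66.8 ± 5.33 CPM with PZH and 121 ± 10.3 CPM with water (SD, n = 6 each; log2 fold change -0.85, edgeR adjusted p = 1.42e-05). In PZH livers miR-322-5p averaged 229 ± 24.4 CPM, against 270 ± 19.3 CPM in water livers (SD, n = 6 each; log2 fold change -0.23, edgeR adjusted p = 0.0830). The insulin-linked miR-103-3p averaged 3076 ± 196 CPM with PZH and 2775 ± 364 CPM with water (SD, n = 6 each; log2 fold change 0.15, edgeR adjusted p = 0.258). For miR-107-3p the log2 fold change was -0.03 (edgeR adjusted p = 0.885), with a sign that turned in some fits.

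How closely members moved together across the livers differed between pairs. The measure is the SD over the 12 libraries of the log2 ratio of a pair, which is small when both move together. Within a cluster it was 0.096 for miR-16-5p and miR-15a-5p, 0.12 for both arms of miR-15b, and 0.14 for miR-195a-5p and miR-497a-5p. It was 0.20 for miR-16-5p and miR-15b-3p, and for the low miR-195a-3p it was 0.44 with miR-195a-5p and 0.40 with miR-497a-5p. Across clusters it was 0.20 for miR-16-5p and miR-195a-5p, 0.23 for miR-15a-5p and miR-195a-5p, and 0.28 for miR-15a-5p and miR-497a-5p. Over all 12 libraries the clusters were not set apart throughout. The pair miR-16-5p and miR-15b-5p, joined at the Smc4 locus, stood at 0.20. Of different clusters, miR-15b-5p and miR-497a-5p also stood at 0.20, and miR-497a-5p and miR-15b-3p at 0.17. Within the groups, miR-16-5p and miR-15b-5p were closer, at 0.099 with PZH and 0.11 with water. There miR-15b-5p and miR-497a-5p stood at 0.26 with PZH and 0.12 with water, and miR-497a-5p and miR-15b-3p at 0.24 and 0.084. The pair miR-15a-5p and miR-15b-5p stood at 0.18 over all libraries but at 0.085 within the PZH group and 0.17 within the water group. These values are a description, with no test, and both miRNAs of a pair share the depth and composition of each library.

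**Figure D4:**
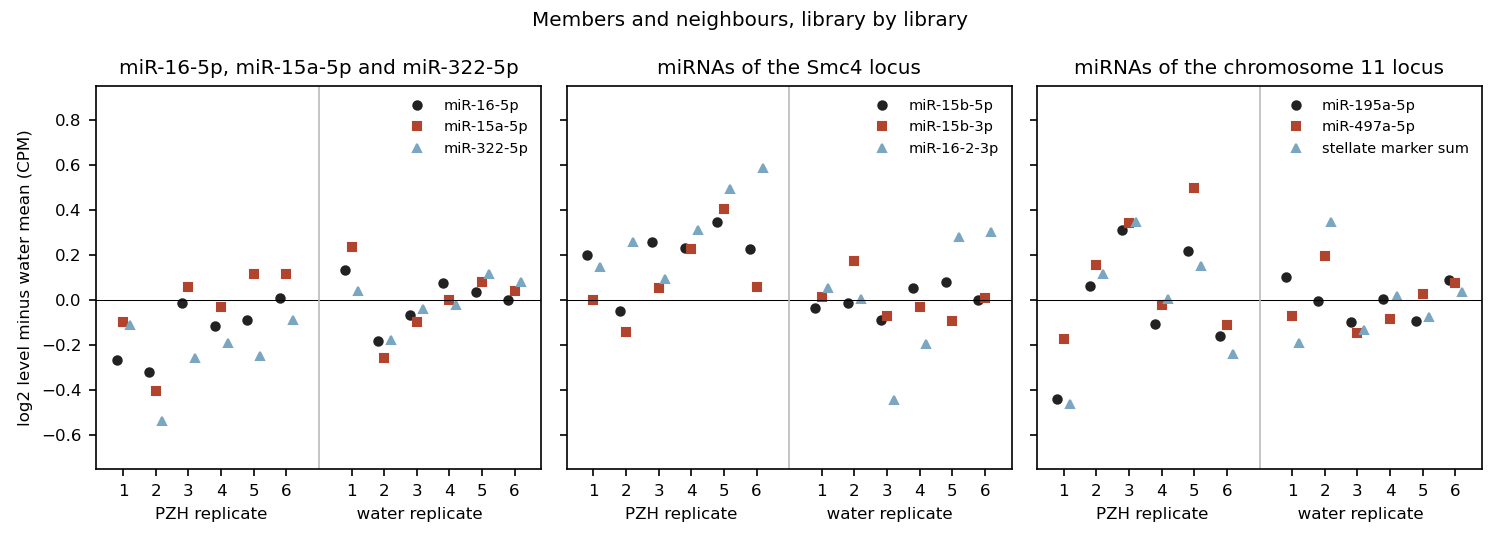
Level of each miRNA in each library as log2 CPM minus its mean over the water libraries, with PZH replicates 1 to 6 on the left of each panel and water replicates 1 to 6 on the right. In the right panel miR-195a-5p and the summed smooth muscle and stellate markers both run lowest in PZH replicate 1 (499.8 and 50191 CPM) and highest among PZH livers in replicate 3 (840 and 87704 CPM). That sum is mostly miR-143-3p. The summed leukocyte markers, not drawn, also ran lowest in PZH replicate 1 (3091 CPM) and highest among PZH livers in replicate 3 (5513 CPM). In the middle panel 5 of 6 PZH livers have miR-15b-5p above all water livers.

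Outside the family, the miRNAs closest to each member by the same measure among the other 600 tested were all uncalled. For miR-195a-5p the closest was miR-27a-3p, at 0.071, where the median over the 600 was 0.37, followed by miR-132-5p and miR-3074-5p. For miR-16-5p they were miR-24-2-5p (0.093), miR-30d-5p and miR-130a-3p. Of these miR-130a-3p and miR-24-2-5p also led for miR-15a-5p (0.10 and 0.11), followed by miR-24-1-5p. The closest to miR-15b-5p were miR-330-5p (0.090), miR-23a-3p (0.090) and miR-425-3p (0.12), and miR-23a-3p, miR-425-3p and miR-25-3p were the closest to miR-15b-3p. Those of miR-497a-5p were miR-187-3p (0.11), the stellate marker miR-199a-5p (0.12) and miR-106b-5p (0.12). For the low miR-195a-3p the closest were miR-27b-5p (0.31), miR-211-5p (0.32) and let-7i-5p (0.32), where the median over the 600 was 0.53.

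Cell type markers were compared with the members, since a bulk liver holds several cell types and fewer cells of a type cannot be told apart from less RNA per cell. The summed level of 4 smooth muscle and stellate miRNAs ranged from 50191 to 87704 CPM with PZH and from 60410 to 87877 CPM with water. Most of this sum was miR-143-3p, with a mean of 61879 CPM with PZH. There miR-145a-5p, miR-199a-5p and miR-214-3p averaged 4644, 2842 and 129 CPM, so the sum says little of them. Within the PZH group the SD of the log2 ratio of miR-195a-5p to this sum was 0.075, and within the water group it was 0.21. Next within the PZH group came the leukocyte sum at 0.11 and the epithelial and biliary sum at 0.14. For miR-497a-5p the SD to the smooth muscle and stellate sum was 0.16 with PZH and 0.11 with water. Other sums were as close or closer in places. Within the PZH group miR-497a-5p stood at 0.12 to the epithelial and biliary sum and at 0.15 to the leukocyte sum. Within the water group miR-195a-5p stood at 0.13 to the hepatocyte sum and at 0.15 to the endothelial sum. None of these 4 markers was called, and their part in the spread of miR-195a-5p was not tested.

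The 2 endothelial miRNAs, both arms of miR-126a, summed to between 10272 and 13900 CPM with PZH and between 12863 and 17096 CPM with water, and both were called lower by edgeR. The SD of the log2 ratio of miR-16-5p to this sum was 0.088 within the PZH group and 0.047 within the water group. Red cells are known to hold much miR-451a and miR-144, and miR-16 too. The 3 erythroid miRNAs in the table summed to between 2536 and 4728 CPM with PZH and between 3037 and 4915 CPM with water, with no call, and the SD of the log2 ratio of miR-16-5p to that sum was 0.32 with PZH and 0.19 with water. The part of any of these cell types in the levels of the members was not tested.

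The remaining lists had no marker at 0 in all libraries. The 5 leukocyte miRNAs summed to between 3091 and 5513 CPM with PZH and between 4147 and 5972 CPM with water, with 1 called lower (miR-223-3p, -0.58, edgeR adjusted p = 0.00583). Of the 5 epithelial and biliary miRNAs 2 were called lower, miR-200c-3p and miR-141-3p, and 0 to 2 were called with a library left out. The sum of all 5 lay between 864 and 1246 CPM with PZH and between 931 and 2192 CPM with water, highest in water replicate 2. The 3 hepatocyte miRNAs had no call, and 0 to 2 calls with a library left out. Their sums ran from 174825 to 228796 CPM with PZH and from 192086 to 221809 CPM with water. These 3 miRNAs include miR-122-5p, the defining miRNA of hepatocytes, so the labelled tissue was borne out by its markers.

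Other miRNAs known to act on the G1 to S step were counted beside the family, from lists drawn up by role. The lists were made with earlier results of these data known, so the counts are a description and not a test. Of 18 tested miRNAs that restrain it, 3 fell and 1 rose by edgeR, with a median log2 fold change of 0.09, against 11.4% lower and 9.88% higher among all tested miRNAs. Those that fell were miR-503-5p, given above, miR-193a-3p (-0.48, edgeR adjusted p = 0.0159) and miR-101a-3p (-0.30, edgeR adjusted p = 0.0394), which targets the methyltransferase Ezh2. The growth-restraining let-7b-5p rose (0.28, edgeR adjusted p = 0.0495). Of 13 tested miRNAs that promote the step, 4 rose and 0 fell, with a median of 0.05. These were miR-17-5p (0.42, edgeR adjusted p = 0.00231), miR-93-5p (0.35, edgeR adjusted p = 0.00324) and miR-20a-5p (0.28, edgeR adjusted p = 0.0335), which repress p21, and miR-221-3p (0.34, edgeR adjusted p = 0.0172), which represses p27. The count of 4 in the promoting list was 2 with a block for the replicate number, and the count of 4 in the restraining list ranged from 1 without a filter to 7 with total-count scaling.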

How the data were processed

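Raw counts per mature miRNA, deposited by the authors without normalization, were analysed in 12 libraries. Trizol RNA and a TruSeq small RNA kit were used, per the labels' protocols. The submitters' processing notes name cutadapt, FastQC, BWA, DESeq2 and GRCm38. For the counting tool, annotation release and use of strand: not given in the sources used here. No cell of the table holds the value 1, for an unstated reason.

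Counts were compared with edgeR 4.0.16 in R 4.3.3 (TMM, default filter). Arm ratios used limma 3.58.1 on log2 ratios with a pseudocount of 1, for hairpins with a mean of at least 20 counts. Member ratios used SciPy 1.17.1. DESeq2 1.42.0 and limma-voom were alternatives, with other scalings, filters, a replicate block, and each library left out in turn. The edgeR test was checked on simulated data, with changes put on miRNAs drawn at random from all those tested. It called 26.0% of miRNAs changed 1.25-fold, 38.8% of those changed 1.5-fold and 87.0% of those changed 2-fold. Of unchanged miRNAs it called 1.77%. These shares hold for tested miRNAs of all levels and not for the members in particular. Small changes can thus be missed, and the lack of a call does not show that a level is unchanged.

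The members, lists and tests were chosen with earlier results of these data known. The text names all members, same-seed and same-hairpin relatives, called list miRNAs, and the 3 miRNAs closest to each member. The family share of miR-15b-5p and the likeness to marker sums were looked at after values were seen. Replicate numbers 1 to 6 occur in both groups, and no source says that they pair mice.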

Additional observations from a re-analysis of the deposited data

Results flagged for a closer look

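In a group of 6 libraries, a value was set apart when its gap to the next exceeded Dixon's 95% limit. This held for 1 of 42 groups looked at, where chance sets apart about 1 in 20. The level of miR-16-1-3p in water replicate 6 was 9.59 CPM, from 48 counts, below the next water liver at 14.3 CPM. That library has the lowest total of the 12, and the log2 fold change of miR-16-1-3p without it was -0.12 (edgeR adjusted p = 0.654).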

How the results depend on the processing

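The call of miR-15b-5p, the member nearest the threshold, depended on the processing. Its log2 fold change was 0.24 with RLE scaling, 0.29 with a filter of 10 CPM in 6 libraries and 0.25 with DESeq2, all called, and 0.18 to 0.27 with each library left out. Against the main fit, the log2 fold changes of all shared miRNAs also rose, by a median of 0.036 (RLE), 0.087 (stricter filter) and 0.047 (DESeq2). The number of members called was 1 in those fits and 0 to 1 with a library left out. The sign of small differences turned. For miR-15a-5p it was 0.0025 with total-count scaling, 0.047 with the stricter filter and 0.0094 with DESeq2, and -0.089 to 0.046 with a library left out. For miR-195a-5p it was -0.018 with the replicate block, -0.014 with limma-voom and -0.067 to 0.075 with a library left out. For miR-107-3p it was 0.0040 (RLE), 0.0070 (total count), 0.053 (stricter filter), 0.015 (DESeq2) and -0.083 to 0.020 (libraries left out). For miR-16-1-3p it was 0.0082 (total count), 0.047 (stricter filter), 0.0028 (DESeq2) and -0.12 to 0.027 (libraries left out). With libraries left out, miR-15a-3p lay between -0.13 and 0.039 and the arm ratio of miR-15a between -0.070 and 0.096. The ratio of miR-15a-5p to miR-15b-5p kept -0.24 with the replicate block but was not called (adjusted exact permutation p = 0.125; 0.0312 is the smallest raw p that 6 pairs can give), and lay between -0.29 and -0.19 with a library left out. That of miR-15a-5p to miR-16-5p lay between 0.069 and 0.13. Calls in the restraining list, 4 as reported, were 7 with total-count scaling, 1 without a filter, 7 with the stricter filter and 2 to 4 with a library left out. Calls in the promoting list were 2 with the replicate block and 3 to 4 with a library left out. Marker calls with a library left out were 0 to 2 (hepatocyte), 0 to 1 (erythroid) and 1 to 3 (leukocyte). They were 1 to 2 (endothelial), 0 to 2 (epithelial and biliary) and 0 (smooth muscle and stellate). Arm ratio calls, 11 as reported, were 19 with a minimum mean count of 100, 6 with the replicate block and 3 to 14 with a library left out. The cause was not tested. Over all miRNAs 60 were higher and 69 lower, against 59 higher and 35 lower with the stricter filter. Same-numbered libraries had correlations of -0.15 to 0.08 and none matched its own number best. This gave no sign of a pairing but cannot exclude one. With the replicate block 114 miRNAs were called, against 129.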

Other observations

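The hairpin of miR-497b lies on the minus strand of chromosome 11 across Mir497, so that the strands share 1 locus. The count of miR-497b was 6 to 24 in the PZH libraries and 0 to 20 in the water libraries, where miR-497a-5p had 831 to 1938 counts with PZH and 760 to 3168 counts with water. The 3p arm miR-497a-3p held 44 counts in the PZH libraries together and 41 in the water libraries together, and did not pass the filter.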
